A study of Mus musculus with 8 samples.

Results

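The 10 genes of the circadian clock studied here were *Arntl*, *Clock*, *Npas2*, *Per1*, *Per2*, *Per3*, *Cry1*, *Nr1d1*, *Nr1d2* and *Dbp*, chosen by name among the 44674 genes measured in brown adipose tissue (BAT). All 10 were found in the table and all 10 passed the filter on low counts. The clock is a feedback loop that runs in nearly every cell. BMAL1, the product of *Arntl*, pairs with CLOCK or its relative NPAS2 and activates genes that carry an E-box in their promoters, among them the *Per* and *Cry* genes, *Nr1d1*, *Nr1d2* and *Dbp*. PER and CRY proteins then repress this pair, while the nuclear receptors REV-ERBα and REV-ERBβ, made from *Nr1d1* and *Nr1d2*, repress *Arntl*. In rodent tissues *Arntl* mRNA therefore peaks at about the opposite time of day from *Nr1d1* and *Dbp* mRNA, and brown fat is known to have such rhythms.

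BAT was taken from 4 control mice and 4 Ox1RΔSERT mice (labelled Sert-Ox1R), all males on a high-fat diet (HFD) from week 4 to week 18, and studied by mRNA sequencing. By the study's methods both groups carried floxed alleles of the orexin receptor gene *Ox1R*. The Ox1RΔSERT mice also carried Cre recombinase driven by the serotonin transporter gene (*Sert*), to delete the receptor in serotonergic cells. Their littermate controls had no Cre. The study showed the loss in serotonergic neurons of the raphe nuclei and described no check of recombination in brown fat. The study also saw reporter expression with this Cre in parts of the cortex and thalamus. All mice had been fasted for a few hours, and were killed between 14 and 16 h at the end of a hyperinsulinemic-euglycemic clamp, in which insulin is infused and glucose is given to hold blood glucose steady. The labels do not say whether these hours are clock time or give the hour of single mice, so the order of the mice within these 2 hours is not known, and no other time of day was analysed here.

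Total estimated counts per mouse ran from 35852708 to 50063339, and the clock genes took between 0.0336% and 0.0495% of them. The targeted gene, *Hcrtr1*, which encodes Ox1R, had 0 to 5 counts per mouse in both genotypes, so brown fat gives no check of the deletion. The summed markers of brown adipocytes, among them *Ucp1* and *Cidea*, were high in all 8 libraries, at normalized values of 6150 to 8211 in controls and 4163 to 6428 in Ox1RΔSERT mice. Ox1RΔSERT mice 11708 and 11601 stood apart from the other 6 mice on the first principal component, which held 53.6% of the variance of all tested genes. Their summed leukocyte markers (*Ptprc*, *Adgre1*, *Cd68* and 5 others) were 622.6 and 791.9, against 93.9 to 215.5 in the other 6 mice. The summed skeletal muscle markers reached 1351 in control mouse 11253 and 1899 in mouse 11708, against at most 143.6 elsewhere. In such bulk tissue, fewer cells of a type and less RNA per cell cannot be told apart.

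None of the 10 clock genes passed the test between genotypes, while some of them differed widely between mice of 1 genotype. *Arntl* differed 6.81-fold between the lowest and the highest control mouse. The order of the mice by *Arntl* was nearly the reverse of their order by *Per3*, and the mice high in *Per1* were also high in *Nr1d2*. The values below are normalized values, which are CPM after TMM scaling, given for controls 10684, 11253, 11560 and 11563 and for Ox1RΔSERT mice 11243, 11601, 11613 and 11708 in this order, and fold changes are those of Ox1RΔSERT mice over controls on the log2 scale.

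**Figure D1:**
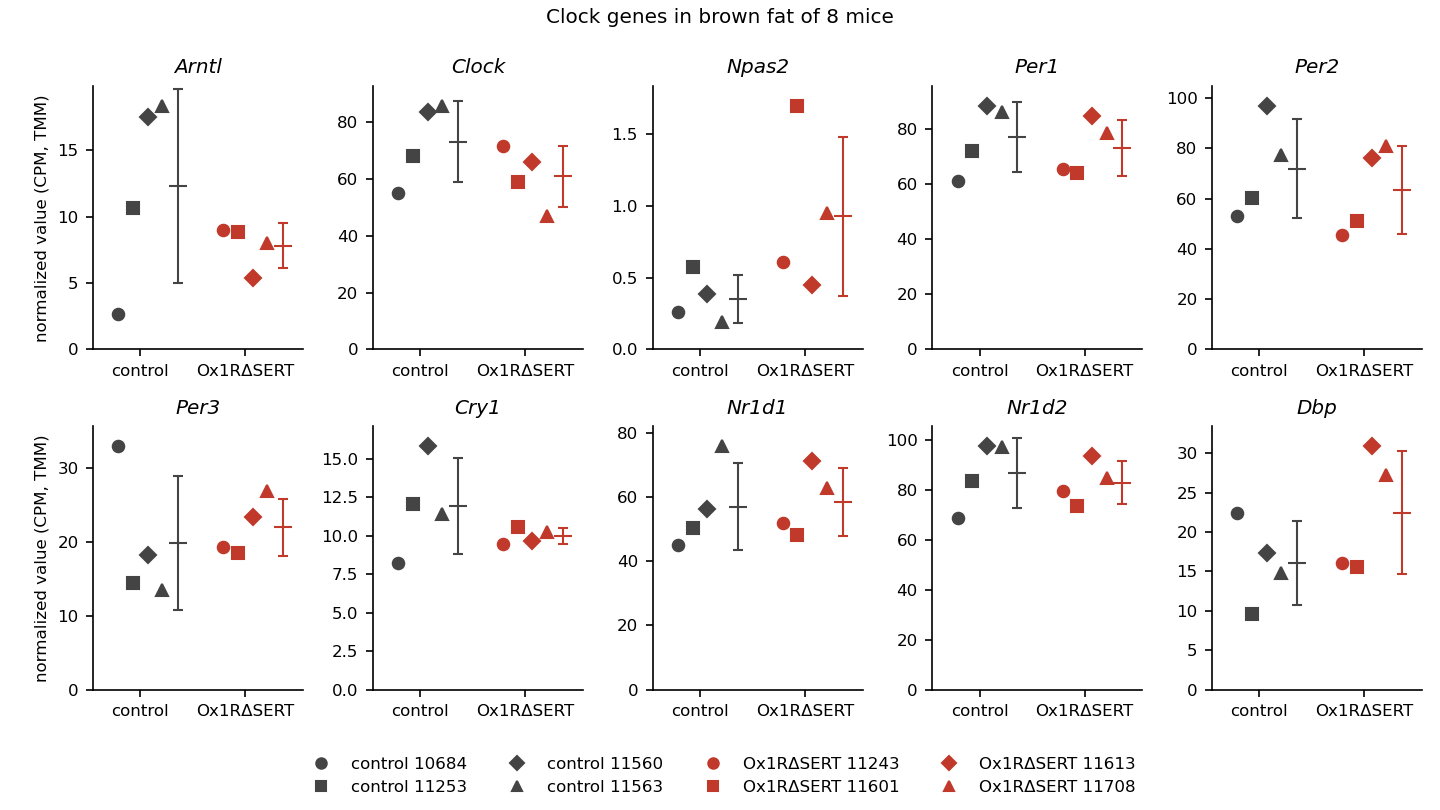
Normalized value (CPM after TMM scaling, linear axes from 0) of each clock gene in the 4 control and the 4 Ox1RΔSERT mice, 1 symbol per mouse, with the mean and SD of each group at its right (n = 4). The groups overlap in all 10 panels, and control mouse 10684 is lowest for *Arntl* (2.69) and highest for *Per3* (33.0).

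*Arntl* (chr7:113207465-113314126, plus strand, GRCm38) had a normalized value of 2.69, 10.7, 17.5 and 18.4 in the controls. In the Ox1RΔSERT mice it was 8.97, 8.86, 5.34 and 8.0. Mouse 10684 lay below all 4 Ox1RΔSERT mice, and the other 3 controls lay above all 4 of them. The mean was 12.3 ± 7.27 in controls and 7.79 ± 1.69 in Ox1RΔSERT mice (SD, n = 4 each). The log2 fold change was -0.66 ± 0.49 (SE, adjusted p = 0.518, quasi-likelihood test of edgeR with Benjamini-Hochberg adjustment). Its size depended on the processing. It was -0.44 with library size only, -0.40 in limma voom, -0.096 on log2(TPM + 1) and -0.036 on log2(TPM + 0.1). On these 2 TPM scales the median over all tested genes was 0.23 and 0.32. Without mouse 10684 the log2 fold change of *Arntl* was -0.995 in edgeR (adjusted p = 0.306) and -1.0 in DESeq2 (adjusted p = 0.0128). The latter was a fit chosen after seeing the data, which called 2.64% of all genes. This was the 1 setting of 28 in which any clock gene was called, and every edgeR and limma setting called 0 of all genes.

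*Clock* (chr5:76209868-76304792, minus strand), the usual partner of BMAL1, varied far less. Its normalized values were 55.2, 68.0, 83.6 and 85.9 in the controls and 71.8, 58.9, 66.1 and 46.9 in the Ox1RΔSERT mice. Mouse 11708 alone lay below all controls, and it and mouse 11601, the mice with the highest leukocyte markers, had the lowest values of their group. The log2 fold change was -0.26 ± 0.17 (adjusted p = 0.469, edgeR).

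*Npas2* (chr1:39193731-39363236, plus strand), which can stand in for CLOCK, was near the limit of what was measured, with 9 to 86 counts per mouse. Its normalized values were 0.26, 0.57, 0.38 and 0.19 in the controls and 0.61, 1.70, 0.45 and 0.95 in the Ox1RΔSERT mice, where 3 counts correspond to 0.0592 to 0.0951. Of the 4 Ox1RΔSERT mice, 3 lay above all controls. The log2 fold change was 1.42 ± 0.49 with an unadjusted p of 0.0192 and an adjusted p of 0.316 in edgeR, an adjusted p of 0.151 in DESeq2, and an exact permutation p of 0.0571 (two-sided, n = 4 each). The highest values of *Npas2* were those of mice 11601 and 11708, the mice with the highest leukocyte markers; without both of them the log2 fold change was 0.62 (adjusted p = 0.996, edgeR), and the part of leukocytes in this difference was not tested.

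Of the repressor arm, *Per1* (chr11:69095217-69109960, plus strand) and *Per2* (chr1:91415982-91459324, minus strand) encode the PERIOD proteins that respond fastest to stimuli. *Per1* was at 61.3, 72.0, 88.5 and 86.1 in the controls and at 65.4, 63.9, 84.6 and 78.7 in the Ox1RΔSERT mice. *Per2* was at 52.9, 60.4, 97.1 and 77.4 in the controls and at 45.7, 51.2, 76.1 and 81.0 in the Ox1RΔSERT mice. Each genotype held a pair of mice high in both genes (11560 and 11563, 11613 and 11708) and a pair low in both, and for *Per2* the low pair of Ox1RΔSERT mice lay below all controls. The log2 fold changes were -0.07 ± 0.15 for *Per1* (adjusted p = 0.822) and -0.18 ± 0.24 for *Per2* (adjusted p = 0.727).

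*Per3* (chr4:151003652-151044665, minus strand), the PERIOD gene least needed for the rhythm itself, had a different pattern. It was at 33.0, 14.4, 18.2 and 13.5 in the controls and at 19.3, 18.4, 23.3 and 26.8 in the Ox1RΔSERT mice. Here mouse 10684 was the highest and the other 3 controls lay below all Ox1RΔSERT mice, the mirror image of *Arntl*. The log2 fold change was 0.15 ± 0.28 (adjusted p = 0.81, edgeR) and 0.51 without mouse 10684.

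*Cry1* (chr10:85131700-85185064, minus strand) encodes a cryptochrome, the strongest repressor of the BMAL1 pair. It was at 8.24, 12.1, 15.9 and 11.4 in the controls and within 9.46 to 10.6 in the 4 Ox1RΔSERT mice, all inside the range of the controls. The SD on the log2 scale was 0.384 in controls and 0.0747 in Ox1RΔSERT mice, and the log2 fold change was -0.25 ± 0.18 (adjusted p = 0.506, edgeR). No test was made of whether the spread differed between genotypes.

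The REV-ERB genes had, with *Per1*, the fold changes nearest to 0. *Nr1d1* (chr11:98767932-98775333, minus strand) was at 45.2, 50.5, 56.5 and 76.2 in the controls and at 51.9, 48.1, 71.3 and 62.9 in the Ox1RΔSERT mice, with a log2 fold change of 0.04 ± 0.18 (adjusted p = 0.94). *Nr1d2* (chr14:18204054-18239127, minus strand) was at 68.5, 83.4, 97.7 and 97.3 in the controls and at 79.4, 73.5, 93.6 and 84.9 in the Ox1RΔSERT mice, with a log2 fold change of -0.07 ± 0.13 (adjusted p = 0.828). Mouse 10684 was the lowest of all 8 mice for both genes, as for *Arntl*. An exon of *Nr1d1* shares 263 bases with *Thra* on the opposite strand, and the libraries were stranded.

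*Dbp* (chr7:45705088-45710203, plus strand) encodes a transcription factor of the clock output that binds D-boxes. It was at 22.5, 9.61, 17.4 and 14.8 in the controls and at 16.1, 15.6, 31.0 and 27.2 in the Ox1RΔSERT mice. Mice 11613 and 11708 lay above all controls, and the other two Ox1RΔSERT mice lay inside their range. The log2 fold change was 0.48 ± 0.30 (adjusted p = 0.449, edgeR). Its exons share 539 bases with *Sphk2* on the opposite strand.

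For the 10 genes as a whole, edgeR called 0 at an adjusted p under 0.05, as for all genes tested (0 of 14489, 0.0%), and DESeq2 called 0 against 265 of 15119 genes (1.75%). At an unadjusted p under 0.05, 1 of the 10 genes passed, *Npas2*, against 15.2% of all tested genes in either direction and 10.2% in the higher direction. The genotypes overlapped for all 10 genes, and they did not for 5.5% of all tested genes. The exact permutation p values of the 10 genes ran from 0.0571 to 0.886, where the smallest possible with 4 mice against 4 is 0.0286. The fold change was above 0 for 4 of the 10 genes with TMM scaling, for 7 with library size only and for 9 with TPM, since these scalings moved the median log2 fold change of all genes from 0.00 to 0.22 and to between 0.23 and 0.32. The median of the clock genes was -0.07 with TMM scaling.

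**Figure D2:**
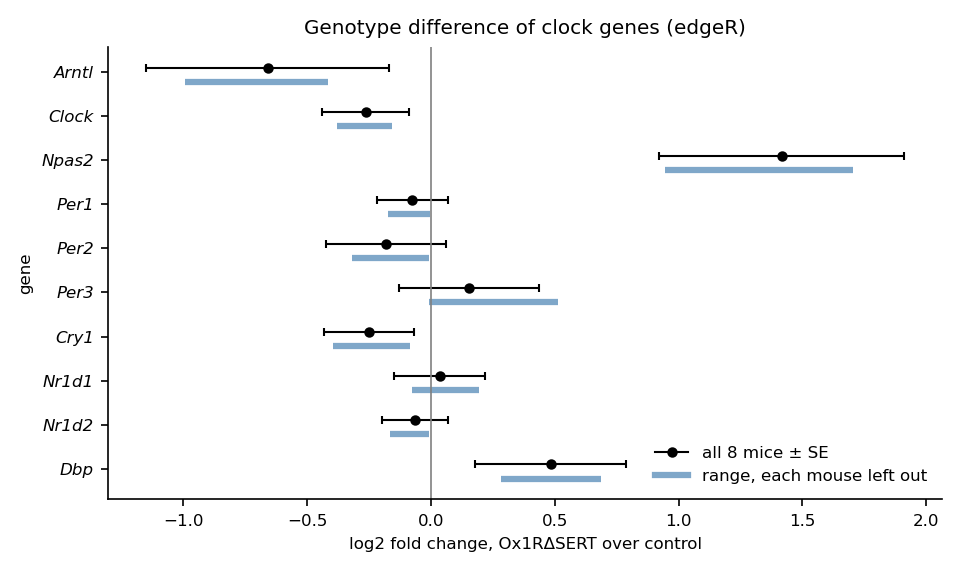
Log2 fold change of each clock gene in Ox1RΔSERT mice over controls (points, edgeR, with bars of ± 1 SE) and the range of the same value when each mouse in turn is left out (blue bars). *Npas2* has the highest value (1.42) and *Arntl* the lowest (-0.66), and the ranges of *Per3* and *Nr1d1* cross 0.

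Mice of 1 genotype differed most in *Arntl* among the clock genes. The SD of the log2 values about the genotype means was 0.931 for *Arntl*, a value exceeded by 4.47% of all tested genes, and it was 0.644 for the low *Npas2*, 0.51 for *Dbp* and 0.45 for *Per3*. It was smallest for *Nr1d2* (0.2) and *Per1* (0.224). The median over the 10 genes was 0.346 against 0.243 over all tested genes, and 8 of 10 lay above that median. Without mouse 10684 the median over the 10 genes was 0.259, and the jackknife standard error of the median was 0.0877. The median over all tested genes is not given without this mouse, so 0.259 has no matching value beside it. For *Arntl* the SD was 1.27 in controls and 0.346 in Ox1RΔSERT mice, and the former rests on mouse 10684, without which the controls ran from 10.7 to 18.4.

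Whether this spread looked like a difference in the time of sampling was examined with the pairs that are known to run in opposite phase, *Arntl* with *Dbp* and *Arntl* with *Nr1d1*. Over the 8 mice *Arntl* and *Dbp* tended to opposite directions, with Pearson's r = -0.531 (exact permutation p = 0.174, adjusted over 45 pairs p = 0.374) and Spearman's rho = -0.714 (exact p = 0.0576, adjusted p = 0.216). About the genotype means r was -0.497 (exact p = 0.264), and without control mice 10684 and 11563, the mice farthest from the median of *Arntl*, it was -0.56. The value depended on the scaling: r was -0.216 on log2(TPM + 0.1) (exact permutation p = 0.611) and -0.392 with library size only (exact p = 0.33). The sign was thus negative in each of these fits, and none passed the test. The ratio of *Dbp* to *Arntl* TPM, transcript abundances per transcript length, was higher in all 4 Ox1RΔSERT mice than in 3 of the 4 controls, and highest of all in the fourth control, mouse 10684. It was 19.8 in control mouse 10684, 2.29, 2.6 and 2.0 in the other 3 controls, and 4.65, 4.26, 13.3 and 8.68 in the Ox1RΔSERT mice. The ratios of *Nr1d1* and of *Per3* to *Arntl* TPM set the same mice apart in the same way. All these ratios share *Arntl* as the divisor, and its normalized values alone set these mice apart. The order of the *Dbp* ratio therefore cannot show that *Arntl* and *Dbp* ran in opposite phase.

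*Arntl* and *Nr1d1* did not run in opposite directions over all 8 mice. Pearson's r was 0.406 (exact permutation p = 0.322, adjusted p = 0.537) and Spearman's rho 0.381 (exact p = 0.36, adjusted p = 0.54), with r = 0.438 about the genotype means (exact p = 0.418). Without mice 10684 and 11563 the sign turned, to r = -0.518 (exact p = 0.294), so the positive value rests on these 2 mice. Mouse 10684 combined the lowest *Arntl* with the lowest *Nr1d1*, and mouse 11563 the highest *Arntl* with the highest *Nr1d1*. Among the Ox1RΔSERT mice, 11613 combined the lowest *Arntl* with the highest *Nr1d1* and the highest *Dbp* of its group. *Arntl* and *Nr1d1* thus ran the same way in the controls (r = 0.774, n = 4) and opposite ways in the Ox1RΔSERT mice (r = -0.884, n = 4). The r about the genotype means joins both, and this difference between the genotypes was not tested. The hour of death of single mice is not given, and the part of time of day in these differences was not tested.

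**Figure D3:**
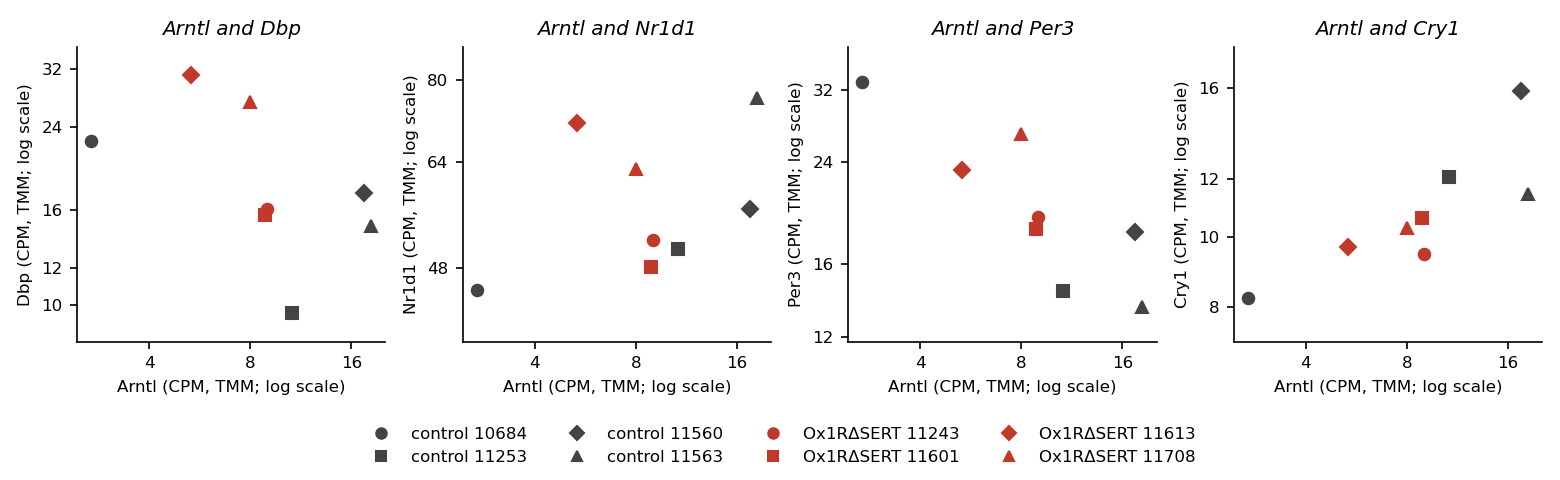
Normalized value of *Dbp*, *Nr1d1*, *Per3* and *Cry1* (y axes) against that of *Arntl* (x axes) in the 8 mice, all on log scales, 1 symbol per mouse. *Per3* has a negative and *Cry1* a positive r with *Arntl* (-0.847 and 0.825, neither past the test over 45 pairs), while *Nr1d1* is both lowest and highest in the control mice at the ends of the *Arntl* axis.

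By Pearson's r, the strongest relations with *Arntl* among the clock genes were those of *Per3* and *Cry1*. By rank, *Clock* stood between them, with rho = 0.857 (exact permutation p = 0.0107, adjusted p = 0.098) and r = 0.679 (exact p = 0.0623, adjusted p = 0.244). *Per3* ran against *Arntl* with r = -0.847 (exact permutation p = 0.00766, adjusted p = 0.104) and rho = -0.929 (exact p = 0.00223, adjusted p = 0.0502), and with r = -0.545 without mice 10684 and 11563. *Cry1* ran with *Arntl* at r = 0.825 (exact p = 0.0153, adjusted p = 0.104) and rho = 0.786 (exact p = 0.0279, adjusted p = 0.114), and at r = 0.888 without the same 2 mice. About the genotype means r was -0.839 for *Per3* (exact permutation p = 0.092) and 0.826 for *Cry1* (exact p = 0.139). In the controls alone r was -0.891 for *Per3* and 0.855 for *Cry1*, and in the Ox1RΔSERT mice alone -0.459 and 0.325. The relations of *Arntl* with *Per3*, *Clock* and *Cry1* did not pass the test over the 45 pairs. *Per3* and *Dbp*, which are both known to peak ahead of *Per1* and *Per2*, ran together at r = 0.78 (exact p = 0.0233, adjusted p = 0.131) and rho = 0.81 (exact p = 0.0218, adjusted p = 0.098).

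A further set of genes, *Per1*, *Per2*, *Nr1d1* and *Nr1d2*, had r between 0.666 and 0.972 for its 6 pairs. *Per1* and *Nr1d2* put the 8 mice in the same order (rho = 1.0, exact permutation p = 4.96e-05, the smallest possible; adjusted p = 0.00223), with r = 0.972 (exact p = 2.48e-05, adjusted p = 0.00112). This was the only pair of the 45 with an adjusted p under 0.05, and it kept that call with each mouse left out in turn. About the genotype means its r was 0.971 (exact p = 0.00174, the smallest that permutation within genotypes allows, adjusted p = 0.0781). *Per1* and *Per2* had r = 0.928 (exact p = 0.00307, adjusted p = 0.0692) and *Nr1d1* and *Nr1d2* r = 0.828 (exact p = 0.0137, adjusted p = 0.104). On TPM values 5 pairs passed, *Per1* with *Per2*, *Nr1d1* and *Nr1d2*, *Nr1d1* with *Nr1d2*, and *Per3* with *Dbp*. All pairs share the same 8 libraries and their scaling, which can move genes together.

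**Figure D4:**
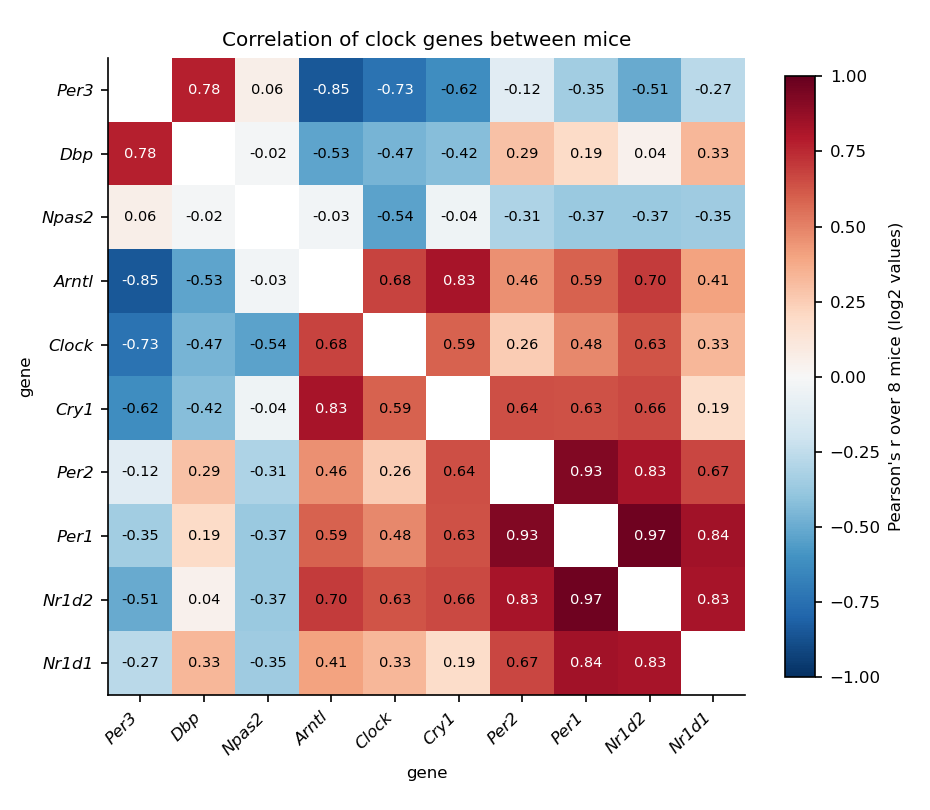
Pearson's r over the 8 mice for each pair of clock genes, on log2 normalized values, from -1 (blue) to 1 (red), with genes placed by hand so that like genes are neighbours. *Per1*, *Per2*, *Nr1d1* and *Nr1d2* form a red block at the lower right (r of 0.666 to 0.972), and *Per3* is blue against *Arntl* (r = -0.847).

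The promoters of the clock genes were searched for the letters of 4 elements of the clock. RefSeq promoter windows (GRCm38.p6, 250 bases before to 50 bases after a start site) were at hand for 9 of the 10 genes, 13 windows in all, and not for *Per2*. The E-box CACGTG, bound by the BMAL1 pair, stood in 2 of these 13 windows and in 7.15% of all 32851 windows, and its variant CACGTT in 2 of the 13 and in 4.68% of all. The D-box TTATGTAA, bound by DBP and its relatives, stood in 1 of the 13 windows and in 0.938% of all, and the core TAGGTCA of the element that REV-ERB and ROR receptors share stood in 1 of the 13 and in 2.61% of all. Both strands were searched, and no 2 matches overlapped. The *Per3* window held 2 D-boxes, and the *Arntl* match lay 30 to 36 bases behind the start site. The matches are shown with 30 bases each on the strand of the gene, with the element in capitals.
*Per3*, D-box, chr4:151044852-151044881, minus strand: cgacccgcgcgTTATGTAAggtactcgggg
*Per3*, D-box, chr4:151044805-151044834, minus strand: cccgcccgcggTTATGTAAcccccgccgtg
*Per1*, E-box, chr11:69098771-69098800, plus strand: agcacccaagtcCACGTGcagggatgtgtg
*Cry1*, E-box, chr10:85185097-85185126, minus strand: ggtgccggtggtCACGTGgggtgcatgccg
*Cry1*, E-box variant read on the other strand, chr10:85185116-85185145, minus strand: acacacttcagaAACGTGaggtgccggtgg
*Nr1d1*, E-box variant read on the other strand, chr11:98775388-98775417, minus strand: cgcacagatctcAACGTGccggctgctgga
*Arntl*, REV-ERB and ROR core, chr7:113207530-113207559, plus strand: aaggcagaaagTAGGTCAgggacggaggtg

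These sequences are shown because the loop described above is known to run through elements with such letters. Binding at these sites was not tested. The windows of *Clock*, *Npas2*, *Nr1d2* and *Dbp* held none of the 4 letter strings, which says only that these letters are not in these windows.

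Levels can be compared between genes only per transcript length, as in the TPM values of the authors. In order of mean log2 TPM over the 8 mice, the levels were 21.4 ± 5.99 TPM for *Nr1d1*, 19.6 ± 4.11 for *Nr1d2*, 15.2 ± 3.29 for *Per1*, 14.1 ± 6.53 for *Dbp* and 9.94 ± 3.10 for *Per2* (mean ± SD, n = 8). They were followed by *Clock* at 7.82 ± 1.44 TPM, *Cry1* at 4.05 ± 0.884, *Per3* at 4.16 ± 1.54, *Arntl* at 2.81 ± 1.37 and *Npas2* at 0.194 ± 0.180. The REV-ERB genes thus stood at the top and the activators *Arntl* and *Npas2* at the bottom. Of the 9 neighbours in this order, 3 passed an exact permutation test on the log2 differences within each mouse. These were *Nr1d2* above *Per1*, *Clock* above *Cry1* and *Arntl* above *Npas2* (each higher in 8 of 8 mice, exact permutation p = 0.00781, adjusted p = 0.0234). The other neighbours did not pass this test, with adjusted p between 0.123 and 0.938. *Dbp* in particular ran from 5.57 to 24.4 TPM and *Arntl* from 0.711 to 4.86 TPM.

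**Figure D5:**
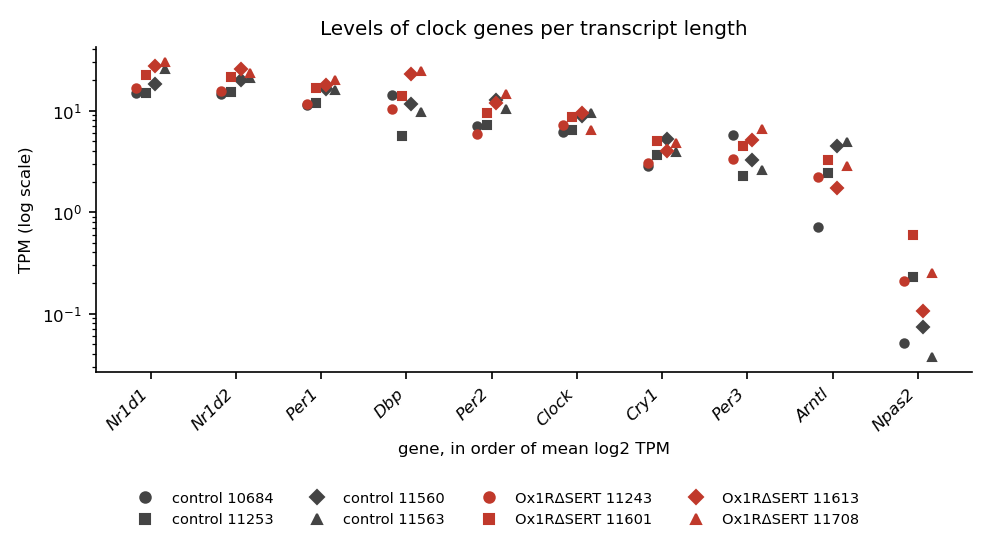
TPM (transcript abundance per transcript length, log scale) of the 10 clock genes in each of the 8 mice, ordered by mean log2 TPM, 1 symbol per mouse with controls in grey and Ox1RΔSERT mice in red. *Nr1d1* and *Nr1d2* lie highest (14.6 to 30.3 TPM) and *Npas2* lowest (0.0375 to 0.589 TPM).

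Other genes of the clock were measured in the same libraries. Of 17 further components, which include *Cry2*, the ROR receptors, the D-box factors *Tef*, *Hlf* and *Nfil3* and the kinases that act on PER, 0 passed edgeR's test, 7 had a fold change above 0 and 10 below 0, and the median log2 fold change was -0.07 against 0.00 over all tested genes. *Rorb*, one of the receptors that compete with REV-ERB, was the only one of the 17 whose genotypes did not overlap, a share near the 5.5% of all tested genes. Its normalized values were 2.62, 2.92, 3.77 and 3.93 in the controls and 2.55, 1.54, 2.31 and 1.63 in the Ox1RΔSERT mice, a log2 fold change of -0.72 ± 0.23 with an unadjusted p of 0.0136 and an adjusted p of 0.316 in edgeR. The exact permutation p was 0.0286, the smallest possible with n = 4 each, for 1 gene among 17. The highest Ox1RΔSERT value (2.55) and the lowest control value (2.62) lay close together, and the lowest values were those of mice 11601 and 11708. Without mouse 11243 the adjusted p was 0.0253 in DESeq2, in a fit that called 9.44% of all genes.

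Of 9 genes known to follow the clock, 0 passed the test and the median log2 fold change was -0.21, with 3 above 0 and 6 below. *Usp2*, a deubiquitinase with a strong rhythm in many tissues, had the lowest p of them, with normalized values of 58.2, 63.3, 65.8 and 39.8 in the controls and 36.5 to 43.9 in the 4 Ox1RΔSERT mice. Its log2 fold change was -0.48 ± 0.15 (unadjusted p = 0.0129, adjusted p = 0.316, edgeR). Mouse 11563 lay among the Ox1RΔSERT mice, and without it the adjusted p was 0.00206 in DESeq2, in a fit that called 0.3% of all genes. Of 9 genes known to respond to glucocorticoids, hormones with a daily rhythm of their own, 0 passed and the median was -0.04. *Errfi1*, a feedback inhibitor of the EGF receptor, was at 23.8, 51.9, 37.1 and 50.1 in the controls and at 46.7, 99.1, 51.7 and 82.9 in the Ox1RΔSERT mice (log2 fold change 0.78 ± 0.31, unadjusted p = 0.0314, adjusted p = 0.317, edgeR). Its highest values were again those of mice 11601 and 11708, and the part of leukocytes in them was not tested. Without mouse 11243 the adjusted p was 0.0369 in DESeq2, in the same fit that called 9.44% of all genes.

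Genes whose pattern over the 8 mice was close to that of *Arntl* were *Kpna1*, *Taf4*, *Senp2* and *Xiap*, with r between 0.955 and 0.97, as a description with no test. The genes that ran most against *Arntl* were *Gdpd5*, *Cutc*, *Coq8a*, *Rab3d* and *Dus2*, with r between -0.974 and -0.963. Of the 14488 other tested genes, 83 had r of at least 0.9 with *Arntl* and 99 had r of at most -0.9, together 1.26%. For *Dbp* the share was 0.2%. The genes most like *Dbp* were *Mroh6*, *Sbf1*, *Man2c1*, *Gm28901* and *A230004M16Rik* (r between 0.93 and 0.97), of which *Mroh6*, *Gm28901* and *A230004M16Rik* had mean normalized values under 0.33. The genes most opposed to *Dbp* were *Srp9*, *Gmcl1*, *Chp2*, *Rwdd1* and *1700101I11Rik* (r between -0.936 and -0.906).

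The further clock components and the genes known to follow the clock were set against *Arntl*, *Dbp* and *Nr1d1*, 78 relations in all, of which 0 had an adjusted p under 0.05. Among the strongest were those of *Arntl* with *Lonrf3* (r = 0.91, exact permutation p = 0.00211, adjusted p = 0.067; rho = 0.833, exact p = 0.0154, adjusted p = 0.3) and with *Btrc* (r = -0.865, exact p = 0.00258, adjusted p = 0.067; rho = -0.905, exact p = 0.00456, adjusted p = 0.279). *Btrc* encodes the ligase subunit that marks PER proteins for degradation, and *Lonrf3* is a rhythmic gene at a normalized value of 0.497 in mouse 10684 and 0.786 to 1.91 in the other 7 mice. Without mice 10684 and 11563 these r were 0.679 and -0.86.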

How the data were processed

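Poly-A selected BAT RNA was made into stranded libraries, and the authors ran Salmon 0.14.1 through nf-core/rnaseq to obtain values per gene. The labels name GRCm38.p6; the annotation release is not given in the sources used here. The authors deposited estimated counts per gene, not normalized, and TPM values, which they normalized for transcript length and library size. Symbols and positions came from GENCODE M21 (GRCm38), and 44118 of 44674 identifiers matched.

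Estimated counts were rounded. The groups (4 against 4, no covariates) were compared with edgeR 4.0.16 (R 4.3.3; filterByExpr, TMM, glmQLFit, glmQLFTest). Tests were two-sided, p values were adjusted by Benjamini-Hochberg over 14489 genes, and the threshold was 0.05. The common dispersion was 0.0988. Single genes were also tested by exact permutation over the 70 assignments of the mice. Correlations used log2(normalized value + 0.1) with exact permutation over 40320 pairings, and neighbours in level used 256 sign assignments. Alternatives were DESeq2 1.42.0, limma 3.58.1 (voom, and trend on TPM), other scalings and filters, and each mouse left out. The nearest pair of libraries, control mice 11560 and 11563, differed by a chi-square of 16.6 per degree of freedom, far above sampling noise, so all 8 were counted. The scripts were tested on simulated data.

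The named genes were the 10 members, genes of the other lists with an unadjusted p under 0.05 or no overlap (at most 5 a list), and the 5 genes most like and most unlike *Arntl* and *Dbp*. Of these, 1 gene is not reported here. The members, lists and tests were chosen with earlier results of these data known. Marker lists of adipocytes, endothelium, nerve and blood were computed and had 0 genes called by edgeR, as for all tested genes (0 of 14489).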

Additional observations from a re-analysis of the deposited data

How the results depend on the processing

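In 27 alternative fits, edgeR, limma and DESeq2 called 0 of the 10 clock genes except for *Arntl* in DESeq2 without mouse 10684 (1 gene, a fit added after seeing the data, as were all DESeq2 fits with a mouse left out). Every edgeR and limma fit called 0 of all genes, so their count of 0 says nothing particular to the clock genes. The DESeq2 fits with a mouse left out called between 17 and 1516 of all genes. The same added fits gave 0 to 1 further clock component (*Rorb*, without mouse 11243), 0 to 2 genes that follow the clock (*Tspan4* and *Noct* without mouse 10684, *Usp2* without 11563, *Wee1* without 11243) and 0 to 1 glucocorticoid-responsive gene (*Mt2* without 10684, *Errfi1* without 11243), against 0 of each with all mice. These fits called 2.64% (without 10684), 0.3% (without 11563) and 9.44% (without 11243) of all genes. Some fold changes changed sign. With library size only *Per1* was at 0.15, *Per2* at 0.051 and *Nr1d2* at 0.15. On log2(TPM + 1) and log2(TPM + 0.1), *Per1* was at 0.23 and 0.25, *Per2* at 0.12 and 0.13, and *Nr1d2* at 0.27 and 0.28. On the same scales *Clock* was at 0.045 and 0.051 and *Cry1* at 0.090 and 0.11, against -0.26 and -0.25 with TMM scaling. The median of all genes moved too, to 0.22 with library size only and to 0.23 and 0.32 on these TPM scales. *Nr1d2* was at 0.0012 without mice 11601 and 11708, *Per3* ran from -0.0067 (without 11563, DESeq2 -0.0031) to 0.51 with each mouse left out, and *Nr1d1* from -0.076 to 0.19, below 0 without mice 10684, 11253 and 11613 (DESeq2 -0.068, -0.026 and -0.091). *Npas2* was not tested when at least 10 counts were required in every mouse.

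The number of correlated pairs was 1, and it was 5 on TPM, 2 with library size only, and 1 to 3 with each mouse left out, the 3 without mouse 11560. It was 0 about the genotype means and 0 without mice 11601 and 11708, where the smallest possible p of a single pair cannot pass over 45 pairs. *Arntl* with *Nr1d1* turned to r = -0.518 without mice 10684 and 11563. Of the 9 neighbours in level, 6 differed when normalized values were divided by exon length, and 0 to 4 with each mouse left out; it was 0 without mouse 11253, 11560 or 11601, and with 7 mice the smallest possible p is 0.0156. The cause of the other changes was not tested. No paired analysis was possible because the labels give mouse numbers and no replicate numbers shared between the genotypes. With 4 mice a group and common dispersion of 0.0988, small differences were not detectable, and *Npas2*, at 9 to 86 counts, is the least precise.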

Other observations

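Control mouse 10684 also lay at the end of the controls for genes outside the 10, some of them brown adipocyte markers. *Dio2* was at 198.4 in this mouse against 817.8 to 1126 in the other 3 controls. *Ppargc1a* was at 34.3 against 103.4 to 111.9, and *Prdm16* at 24.3 against 9.61 to 11.2. *Ucp1* and *Cidea* were lowest in mouse 10684 but close to the next control, and *Cox8b* and *Adrb3* lay inside the range of the other controls. *Fkbp5*, a co-chaperone of the glucocorticoid receptor, had a normalized value of 165.3 in this mouse, 116.6, 61.2 and 65.8 in control mice 11253, 11560 and 11563, and 90.8 to 104.9 in the 4 Ox1RΔSERT mice. *Noct*, a rhythmic gene that encodes the phosphatase nocturnin, was lowest in mouse 10684 at 87.6, against 193.0 to 250.5 in the other 3 controls and 117.3 to 166.7 in the Ox1RΔSERT mice. *Ciart*, a repressor of the clock, was at 6.62, 8.37, 13.8 and 13.1 in control mice 10684, 11253, 11560 and 11563 and at 7.58, 5.11, 12.2 and 13.3 in Ox1RΔSERT mice 11243, 11601, 11613 and 11708, so that each genotype held a low and a high pair of the same mice as for *Per1*. *Fkbp5*, *Noct*, *Ciart* and the brown adipocyte markers were picked out after their values were seen, and none passed edgeR's test between genotypes. The adjusted p of edgeR was 0.955, 0.474 and 0.865 for *Fkbp5*, *Noct* and *Ciart*. It was 0.32, 0.496 and 0.952 for *Dio2*, *Ppargc1a* and *Prdm16*. Among the other listed glucocorticoid-responsive genes, *Tsc22d3* and *Zbtb16* lay inside the range of the other controls in mouse 10684. *Mt1* (632.6 against 376.3 to 428.7), *Mt2* (616.3 against 295.5 to 328.1) and *Klf9* (184.5 against 151.6 to 167.4) lay above that range. *Sgk1* (43.2 against 68.0 to 85.3), *Dusp1* (68.9 against 73.1 to 97.8) and *Errfi1* (23.8 against 37.1 to 51.9) lay below it.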
